A study of Mus musculus with 12 samples.

Results

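The effect of prenatal ethanol was examined among mice that had all been separated from their dams, by comparing 3 ethanol + stress mice with 3 stress mice. These 6 hippocampal RNA libraries were chosen by their labels out of 12 in the series, and of 35580 genes with a deposited transcript the 14455 with a mean of 1 TPM or more over the 12 libraries were tested. All mice were male C57BL/6 (C57BL/6J in the study's methods) sampled at postnatal day 70. Pups of both groups compared here spent 3 h per day from postnatal day 2 to 14 apart from dam and littermates, as stress. The dams of the ethanol + stress mice had a free choice of 10% ethanol in water while pregnant and, by the study's methods, also after birth into the days of separation, whereas the dams of the stress mice drank water alone. The same drinking without separation gave 3 ethanol mice, and neither treatment gave 3 control mice. These 6 further libraries share no mouse with the first 6 and stand beside them where an effect of ethanol with and without separation is compared. Exposure was voluntary, so the dose of each pup is not known from the labels, and nothing names the litter of a mouse, so that litter mates may sit in 1 group. By the study's methods some pups of each litter were separated and the others not, so that the ethanol and ethanol + stress mice, and the control and stress mice, may also share dams and litters. The p values measure only the spread between these samples.

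The hippocampus encodes spatial and contextual memory and holds the brain's densest supply of corticosteroid receptors, through which it takes part in shutting off the stress response. Ethanol that reaches the fetal brain disturbs the proliferation, migration and survival of neurons, and repeated separation of a pup from its dam is a standard model of early life stress. Glucocorticoids act on target genes through a nuclear receptor, and metallothioneins, clock-linked Krüppel-like factors and stress kinases are among the genes they raise.

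A level is given below as TPM, the abundance of a transcript corrected for its length, summed over the transcripts of a gene. Fold changes are differences of log2(TPM + 0.5) between group means, with the standard error (SE) of the fit, and a gene with an unadjusted p under 0.01 in limma is called, which is the threshold the study used. Where a change or difference below is marked not called, its p was 0.01 or more. A second measure, the number of read pairs of a gene relative to the total of its library, was recovered from the deposited values. It does not depend on how the pairs were divided among the transcripts of a gene, while a TPM sum does, because a pair placed on a short transcript counts for more than a pair placed on a long one.

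The libraries held 12340000 to 14970000 recovered read pairs, at which a transcript of 2000 bases at 1 TPM is worth 13.6 to 16.8 pairs. The deposited values summed to between 917170.3 and 1024268.5 in stress mice and between 921281.7 and 1130570.7 in ethanol + stress mice. Markers of the hippocampus were present in all 6 libraries: the summed level of 6 dentate granule cell genes ranged from 164 to 199 TPM, that of 5 CA1 pyramidal cell genes from 98.9 to 164 TPM, and that of 5 CA3 pyramidal cell genes from 198 to 224 TPM. The choroid plexus, a tissue beside the hippocampus, was uneven, with 7 marker genes summing to 1850, 5290 and 1660 TPM in stress mice and to 2320, 7250 and 208 TPM in ethanol + stress mice.

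Ethanol + stress replicate 1 stood apart from the other ethanol + stress libraries in how values moved with gene length. In the 1807 shortest genes, with a median length of 717 bases, its median log2 difference from the mean of the 12 libraries was -0.19, against 0.28 and 0.23 in replicates 2 and 3. In the 1807 longest genes, with a median length of 5804 bases, the medians were 0.09, -0.17 and -0.10 in the same order. The stress libraries spanned -0.16 to 0.09 for the shortest and -0.08 to 0.16 for the longest genes. Replicates 2 and 3 thus lay outside the stress range in both, and replicate 1 only slightly outside it in the shortest genes. The numbers of genes and transcripts called among separated mice, of genes called for the interaction and of called list members, the medians of the lists and the changes of the named genes were also computed without ethanol + stress replicate 1.

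**Figure D1:**
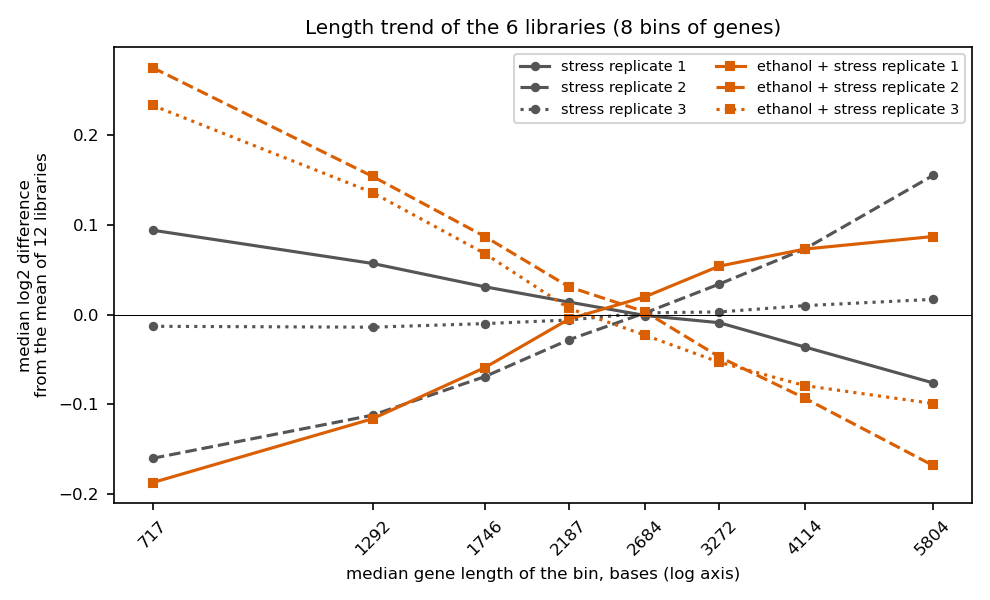
Median difference of log2(TPM + 0.5) from the mean of 12 libraries (vertical axis) in 8 bins of genes by length (horizontal axis, bases, log scale), for the 3 stress and 3 ethanol + stress libraries. Ethanol + stress replicates 2 and 3 run from 0.28 and 0.23 in the shortest genes down to -0.17 and -0.10 in the longest, while replicate 1 runs the other way, from -0.19 to 0.09.

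Prenatal ethanol was followed by few differences among separated mice. Of 14455 genes, 91 (0.63%) were called, with 55 (0.38%) higher and 36 (0.249%) lower in ethanol + stress mice. Where no gene differs, a threshold of 0.01 passes about 1% of genes, so that the share called with all 6 libraries was no larger than the threshold alone allows. No gene had a Benjamini-Hochberg adjusted p under 0.05 in limma, and 548 genes had an unadjusted p under 0.05. The lowest adjusted p was 0.175, for the pseudogene Gm49070. It was listed at 0 in every stress and control mouse, so that it reached the mean of 1 TPM only through ethanol-exposed mice. The 73 called protein-coding genes with an established name had adjusted p values of 0.789 for Plin3 and 0.860 for each of the others. All genes described below are therefore single differences between these 6 mice that do not pass correction for the number of genes tested. The 2 groups did not overlap in 87 of the 91 called genes, where over all genes the 3 ethanol + stress values lay above the 3 stress values in 4.3% and below them in 3.15%.

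The called genes comprised 80 protein-coding genes and 11 pseudogenes, the latter 12.1% of those called against 3.92% of all genes tested. Of the called genes, 9 were listed at 0 in at least 1 of the 6 libraries, and 8 of them were pseudogenes, whose reads can be shared with a parent gene, so that their values are uncertain. Of the 73 named protein-coding genes, 44 rose and 29 fell, with log2 changes between 0.26 and 1.29 in size and a median size of 0.48.

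The count rested on which mice were included. Without ethanol + stress replicate 1 the number called was 518, with 207 higher and 311 lower, and with any other of the 6 libraries left out it lay between 61 and 100. It was 647 without that library once the length trend was also removed from each library, and 687 in recovered read pairs without it. These 3 counts were above the 145 genes that the threshold passes where no gene differs. No gene passed an adjusted p of 0.05 in any of these 3 fits with limma. With all 6 libraries, 67 genes were called in recovered read pairs, and 35 of them were among the 91. The balance of directions turned when each library was rescaled to the same sum, with 58 genes called, 24 higher and 34 lower.

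Of the called genes on the lists for stress, synaptic and cell type functions, the metallothionein Mt2 had the largest change. Metallothioneins are small cysteine-rich proteins that bind zinc and copper and are raised by metals, glucocorticoids and oxidative stress. Mt2 (GENCODE vM21, chr8:94172664-94173568) was at 110, 156 and 181 TPM in stress mice and at 238, 295 and 365 TPM in ethanol + stress mice, so that the lowest ethanol + stress mouse lay above the highest stress mouse. Mt2 rose 2.02-fold, a log2 change of 1.01 (SE 0.28). The change was 0.98, also called, in recovered read pairs, which numbered 310, 369 and 518 in stress mice and 648, 809 and 887 in ethanol + stress mice. Mt2 stayed called under each of the 12 other settings that kept all libraries, but the call ended without stress replicate 1 (0.81), ethanol + stress replicate 2 (1.01) or ethanol + stress replicate 3 (0.86).

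Its neighbour Mt1 (chr8:94179082-94180327) ran the same way without passing the threshold. Mt1 was at 146, 370 and 392 TPM in stress mice and at 661, 897 and 976 TPM in ethanol + stress mice, and the groups again did not overlap. The log2 difference was 1.59 (SE 0.54, not called), with 1.56 in read pairs (called). Mice that had not been separated showed no such order, as Mt1 was at 455, 126 and 376 TPM in control mice and 422, 204 and 126 TPM in ethanol mice. Mt2 was at 184, 104 and 161 TPM in control mice and 187, 205 and 110 TPM in ethanol mice. The test of the difference between the effects with and without separation gave 1.92 for Mt1 and 0.86 for Mt2 on the log2 scale, neither of which was called. Astrocytes are a main source of both transcripts in brain. The 6 astrocyte markers summed to 1650, 1780 and 1700 TPM in stress mice and to 1510, 2050 and 2280 TPM in ethanol + stress mice, none of the 6 was called, and their part in the metallothionein levels was not tested. In bulk tissue, fewer cells of a type and less RNA per cell cannot be told apart.

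The 250 bases before the RefSeq start of each metallothionein gene (GRCm38.p6, plus strand) are shown because both genes stand together in these data and are textbook targets of the metal-responsive factor. Capitals mark the core of its element, TGCACNC or TGCGCNC on either strand, in Mt2 at chr8:94172368-94172617 and Mt1 at chr8:94178839-94179088.
Mt2: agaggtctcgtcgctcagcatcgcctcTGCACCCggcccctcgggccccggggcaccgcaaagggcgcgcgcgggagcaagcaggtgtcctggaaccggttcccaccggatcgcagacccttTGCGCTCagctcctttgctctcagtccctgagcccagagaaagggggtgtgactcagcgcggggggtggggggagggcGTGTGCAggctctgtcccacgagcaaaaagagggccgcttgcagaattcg
Mt1: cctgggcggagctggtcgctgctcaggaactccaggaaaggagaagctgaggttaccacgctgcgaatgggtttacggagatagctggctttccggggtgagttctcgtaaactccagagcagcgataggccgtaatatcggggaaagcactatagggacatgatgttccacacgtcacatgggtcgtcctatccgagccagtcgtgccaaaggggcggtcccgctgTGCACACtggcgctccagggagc
The Mt2 window holds 3 cores, none overlapping, and the Mt1 window holds 1. Bases outside these windows, such as those after the RefSeq start, were not searched. The counts therefore do not compare the whole promoters of the 2 genes. Among 27025 genes with such a window, 21.3% hold 1 or more and 1.28% hold 3 or more, and a match in letters does not show that the factor binds there.

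Of 18 glucocorticoid-induced genes, 17 were tested, and Mt2 was the only one called. Their median log2 difference was 0.11, with 14 above 0 and 3 below, against a median of 0.01 over all genes tested. The median was -0.01 when each library was rescaled to the same sum, a step that moved the median of all genes to -0.10. Without 1 library it lay between 0.06 (without stress replicate 3) and 0.25 (without ethanol + stress replicate 3), and it was 0.04 without ethanol + stress replicate 1 once the length trend was removed. Fkbp5, the chaperone that dampens receptor signalling, stood at 29.3, 36.5 and 26.1 TPM in stress mice and at 38.5, 26.5 and 27.6 TPM in ethanol + stress mice, a difference of 0.00. Sgk1, a kinase raised by corticosteroids, was at 55.2, 75.9 and 49.3 TPM against 77.2, 110 and 55.5 TPM, with overlapping groups and a difference of 0.39. Tsc22d3, which encodes the anti-inflammatory leucine zipper GILZ, was at 85.4, 82.5 and 72.9 TPM against 95.5, 127 and 88.8 TPM, with no overlap and a difference of 0.35 that was not called. Among the 10 tested genes for corticosteroid receptors and corticotropin signalling none was called, and the median was -0.08, with -0.18 without ethanol + stress replicate 1, -0.03 without replicate 2 and -0.20 after rescaling.

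Klf15, a transcription factor that glucocorticoids raise and that governs amino acid breakdown, was not on that list and rose. Klf15 was at 16.5, 16.1 and 16.6 TPM in stress mice and at 21.1, 24.6 and 21.5 TPM in ethanol + stress mice. All 3 ethanol + stress mice were higher, by 0.44 on the log2 scale (SE 0.11), and the change was 0.46 (called) in read pairs. The call ended without ethanol + stress replicate 2 (0.37) and when the libraries were rescaled to the same sum, as did those of Gpt2, Sgms1, Cth, Tmem119, Cd38, Bag3, Snx6, Mmp16, Ddr1, Polr2a, Id1, Rnf123 and Ifitm7 under that rescaling. The effect of ethanol on Klf15 differed with separation by 0.59 (called), with control mice at 19.8, 16.3 and 18.9 TPM and ethanol mice at 14.9, 18.6 and 15.9 TPM. Among separated mice the Klf15 transcript with the largest share of its TPM differed by 0.14 (not called).

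The enzymes Gpt2, Cth, Sgms1, Gdpd3 and Acot8 and the lipid droplet protein Plin3 rose in ethanol + stress mice, and are described singly since no list of metabolic genes was tested. Gpt2, the mitochondrial alanine aminotransferase, was at 40.6, 43.7 and 38.6 TPM in stress mice and 59.1, 58.1 and 46.3 TPM in ethanol + stress mice, and rose by 0.40 (SE 0.10). Read pairs gave 0.35 for Gpt2 (called), and the call ended without stress replicate 3 (0.36) or ethanol + stress replicate 2 (0.35). Cth, the cystathionine gamma-lyase that makes cysteine and hydrogen sulfide, was at 3.89, 5.34 and 4.68 TPM against 5.98, 7.67 and 7.59 TPM and rose by 0.56 (SE 0.15). Cth was one of the few genes called with and without separation: control mice were at 4.70, 4.86 and 3.68 TPM and ethanol mice at 7.56, 6.95 and 6.86 TPM, a change of 0.64 (called). The interaction for Cth was -0.08 (not called). In both settings every ethanol-exposed mouse lay above every mouse it was compared with. Cth read pairs rose by 0.64, and its call among separated mice ended without stress replicate 1 (0.45), ethanol + stress replicate 2 (0.51) or ethanol + stress replicate 3 (0.51).

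Sgms1 encodes the sphingomyelin synthase of the Golgi. It was at 25.8, 28.5 and 25.6 TPM in stress mice and 34.9, 33.8 and 34.2 TPM in ethanol + stress mice, with a change of 0.36 (SE 0.09) and 0.27 in read pairs (called). The 3 ethanol + stress mice lay closely together above the stress mice, and the Sgms1 call ended only without stress replicate 3 (0.33) among the fits that left out 1 library. Its main coding transcript, of 10 exons, was nearly level between groups (0.02, not called). Plin3 (chr17:56277476-56292873), a coat protein of lipid droplets, had the smallest p of the named genes. It was at 16.3, 14.9 and 14.3 TPM in stress mice and 22, 23 and 22.4 TPM in ethanol + stress mice, and rose by 0.55 (SE 0.10). Plin3 kept its call without each library in turn, with changes of 0.52 to 0.60, but in read pairs the difference was 0.40 (not called). Gdpd3, a lysophospholipase D, was at 1.14, 0.985 and 0.972 TPM against 3.18, 2.48 and 2.20 TPM and rose by 1.02 (SE 0.24). These Gdpd3 values rest on 4 to 5 read pairs per stress library and 7 to 14 per ethanol + stress library, where the change was 0.56 (called), and the call ended when the length trend was removed (0.87) but held without each library in turn (0.89 to 1.11). Acot8, a peroxisomal thioesterase, also rose, by 0.46 (SE 0.12), from 14.6, 15.5 and 13.9 TPM to 17.3, 20.8 and 23.4 TPM, and by 0.42 in read pairs (called). The Acot8 call, singled out after its values were seen, ended without stress replicate 3 (0.43) or ethanol + stress replicate 3 (0.36).

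Of 6 microglial markers 1 was called, Tmem119, which rose. Tmem119, a marker of resident microglia, was at 17.3, 16.4 and 16.6 TPM in stress mice and at 20.1, 22.8 and 22.7 TPM in ethanol + stress mice. Its levels did not overlap between the groups, and it rose by 0.37 (SE 0.11), with 0.30 in read pairs (not called). The Tmem119 call ended without any one of the 3 stress libraries (0.36 to 0.40) and without ethanol + stress replicate 2 (0.34) or 3 (0.34). Its ethanol effect differed with separation by 0.54 (called), with ethanol mice at 17.6, 15.8 and 13.8 TPM and control mice at 19.5, 15.6 and 18.0 TPM.

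The other 5 microglial markers were not called, although all had a log2 difference above 0. Cx3cr1, the fractalkine receptor, was at 28.6, 30.6 and 31.5 TPM in stress mice and 30.3, 28.9 and 34.1 TPM in ethanol + stress mice, and P2ry12, a purinergic receptor, at 68.9, 53.4 and 73.1 TPM against 53.6, 62.1 and 85.0 TPM. Both overlapped between groups, with differences of 0.04 and 0.03. The median of the 6 markers was 0.11, and it was 0.23, with 2 called, without ethanol + stress replicate 1, 0.02 without replicate 3 and -0.01 after rescaling. Their summed level was 260, 235 and 268 TPM in stress mice and 243, 298 and 331 TPM in ethanol + stress mice, so that replicate 1 lay within the stress range while replicates 2 and 3 lay above it.

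Cd83, Crybb1, Cfp, Cd86 and Cd38 were called and are on no list used here, and the last 3 were picked once their values were known. Cd83, a surface protein of activated antigen-presenting cells, was at 15.1, 12 and 12.3 TPM against 16.2, 19.5 and 19.7 TPM and rose by 0.48 (SE 0.12). Cd83 gave 0.48 in read pairs too (called) and stayed called under the 12 other settings that kept all libraries. The Cd83 call ended without stress replicate 2 (0.42), stress replicate 3 (0.44), ethanol + stress replicate 2 (0.44) or ethanol + stress replicate 3 (0.43). A transcript with a retained intron held 73.4% of the Cd83 TPM over the 12 libraries. Crybb1, a crystallin that is also transcribed in microglia, was at 5.17, 5.01 and 4.23 TPM in stress mice and 7.15, 9.37 and 9.42 TPM in ethanol + stress mice. It rose by 0.78 (SE 0.18), by 0.70 in read pairs (called), and stayed called without each library in turn, at 0.70 to 0.90. Crybb1 was the only one of the named genes that rose to be called in every fit and every other setting with all libraries.

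Cfp, which encodes properdin, the stabiliser of the alternative complement pathway, was at 0.845, 2.40 and 2.95 TPM in stress mice and 4.20, 4.70 and 5.07 TPM in ethanol + stress mice. Cfp rose by 1.11 (SE 0.31) and by 0.74 in read pairs (called), and without stress replicate 1, the lowest, the difference was 0.70 and no longer called, as it was without ethanol + stress replicate 2 (1.11) or 3 (1.06). Cd86, a co-stimulatory ligand of T cells, was at 1.86, 1.94 and 1.84 TPM against 2.46, 3.68 and 3.78 TPM and rose by 0.66 (SE 0.21), with 0.56 in read pairs (not called). Cd38, an enzyme that degrades NAD, was at 5.85, 6.39 and 5.87 TPM against 7.64, 8.21 and 8.98 TPM and rose by 0.42 (SE 0.13), with 0.41 in read pairs (called). When 1 library at a time was left out, Cd86 and Cd38 were called only without ethanol + stress replicate 1, with differences over these fits of 0.56 to 0.83 and of 0.37 to 0.48.

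Interferon genes and the C1q chains of complement lay mostly above 0 and were not called in the limma fit described above. C1qa, C1qb and C1qc, the chains of the complement initiator made by microglia, had differences of 0.33, 0.36 and 0.38, none of them called. C1qc was at 56.6, 53.8 and 55.1 TPM in stress mice and 59.1, 77.6 and 80.5 TPM in ethanol + stress mice, with no overlap but with replicate 1 close to the stress mice. Of the 10 tested genes of MHC class I and complement, 6 had a difference above 0 and 4 below, down to -0.27. None of the 10 was called in that fit, but C1qb (0.26) and C1qc (0.29) were called once the length trend was removed, and 3 were called, all higher, without ethanol + stress replicate 1, where the median was 0.25 in place of 0.09. That median was 0.01 without ethanol + stress replicate 3 and -0.03 after rescaling. Of 14 tested interferon response genes, 11 had a difference above 0 and none was called, with a median of 0.18 that was 0.27, with 1 called, without ethanol + stress replicate 1, 0.10 without replicate 3 and 0.07 after rescaling. With all libraries 1 interferon gene was called in read pairs and 1 when eBayes was run without its trend. Ifit1, an RNA-binding antiviral protein, was at 1.39, 1.13 and 1.49 TPM against 1.69, 2.42 and 3.06 TPM (0.63, SE 0.22, not called), with 0.68 in read pairs (called). Given beside the immune genes, 5 blood markers, which are red cell genes, summed to 3390, 2590 and 2810 TPM in stress mice and 2450, 6480 and 3980 TPM in ethanol + stress mice. Their part in the immune genes was not tested.

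**Figure D2:**
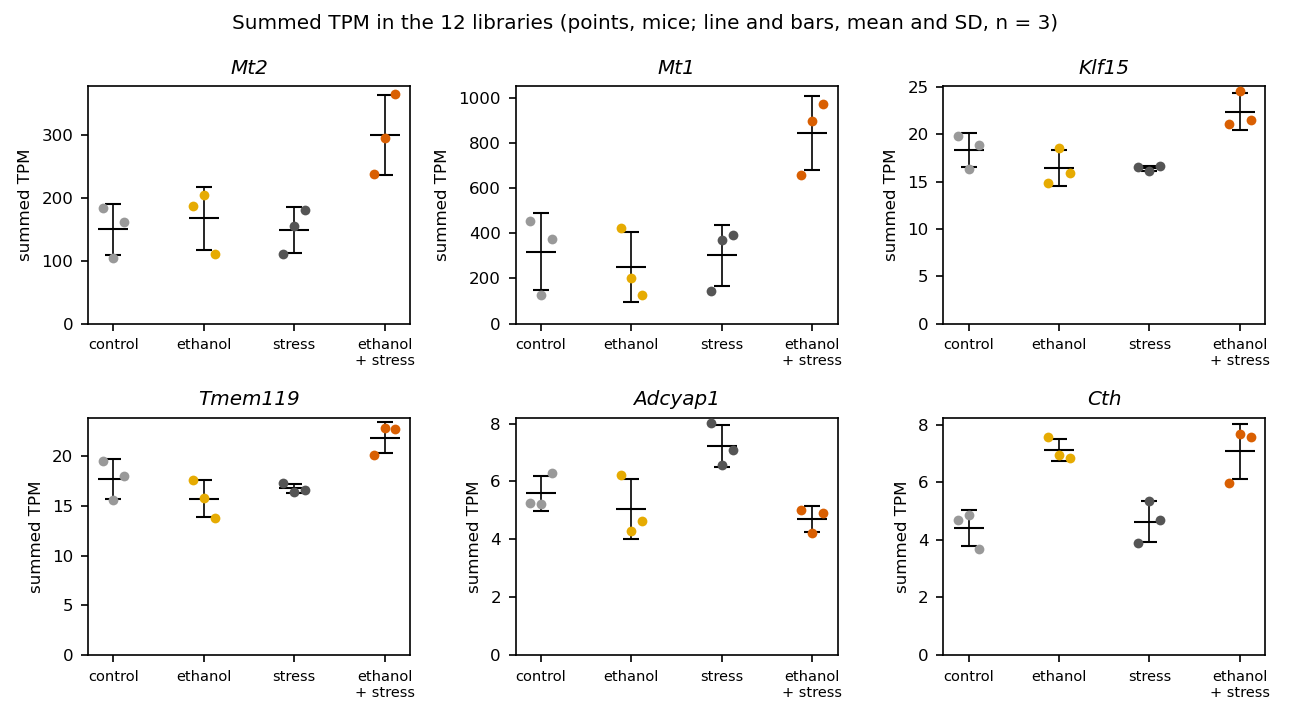
Summed TPM (vertical axes, from 0) of 6 genes in the 12 mice by group, with points for mice and lines with bars for the mean and SD of 3 mice. The ethanol + stress mice lie above the stress mice for Mt2 (238 to 365 against 110 to 181), Mt1, Klf15, Tmem119 and Cth and below them for Adcyap1 (4.20 to 5 against 6.56 to 8.01), and only for Cth do the ethanol mice also lie apart from the control mice.

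The genes that fell included the neuropeptide gene Adcyap1. Adcyap1 (chr17:93199017-93206537) encodes PACAP, a neuropeptide of the central stress response. It was at 8.01, 6.56 and 7.09 TPM in stress mice and at 5, 4.20 and 4.91 TPM in ethanol + stress mice, with no overlap. Adcyap1 fell by 0.57 on the log2 scale (SE 0.15) and by 0.59 in read pairs (called), which numbered 231, 158 and 211 in stress mice and 142, 119 and 125 in ethanol + stress mice. The gene has 1 tested transcript, so that no division among transcripts enters its value. Its call held under the 12 other settings with all libraries and ended without stress replicate 1 (-0.50) or ethanol + stress replicate 2 (-0.50). Control mice were at 5.24, 5.22 and 6.30 TPM and ethanol mice at 6.23, 4.30 and 4.64 TPM, so that the stress mice stood above the range of both groups. Of the other 11 tested neuropeptide precursors none was called, and the median over the 12 was -0.06. It was 0.00, with 6 above 0, without stress replicate 1, -0.18 with the length trend removed, and -0.30, with 2 called, both lower, when ethanol + stress replicate 1 was left out as well.

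Mmp15 and Mmp16, which are membrane-bound matrix metalloproteinases, and the collagen receptor Ddr1 were lower. Mmp15 was at 8.79, 8.69 and 6.34 TPM in stress mice and 5.83, 4.09 and 4.36 TPM in ethanol + stress mice and fell by 0.68 (SE 0.16), with a fall of 0.64 in read pairs (called). Without each library in turn the Mmp15 change stayed called, at -0.83 to -0.59. Mmp16 was at 22.5, 23.3 and 22.4 TPM against 19.2, 17.6 and 17.4 TPM and fell by 0.32 (SE 0.09), and by 0.35 in read pairs (called). Ddr1, a receptor kinase that binds collagen and is found in oligodendrocytes, was at 39.5, 40.8 and 36.8 TPM against 31.9, 29.4 and 28.9 TPM and fell by 0.37 (SE 0.11), while read pairs gave -0.23 (not called). With single libraries left out, Mmp16 and Ddr1 were called only without stress replicate 3 or ethanol + stress replicate 1, and ranged from -0.37 to -0.30 and from -0.42 to -0.34. The secreted gelatinase Mmp2, singled out after its values were seen, was at 3.02, 3.13 and 2.07 TPM against 1.13, 1.74 and 1.6 TPM and fell by 0.70 (SE 0.22). For Mmp2 read pairs gave -0.50 (not called), and its call ended without stress replicate 1 (-0.63) or 2 (-0.61) or ethanol + stress replicate 1 (-0.56) or 3 (-0.74). None of the 14 tested genes of the extracellular matrix and collagen list, which holds none of these 4, was called, and its median was -0.02. Without ethanol + stress replicate 1 the median was -0.17, with 2 called, both lower, and without stress replicate 3 it was 0.07. The 8 oligodendrocyte markers, given for Ddr1, summed to 6050, 5040 and 3970 TPM in stress mice and 3920, 6530 and 6470 TPM in ethanol + stress mice.

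Dnmt3a, which methylates DNA de novo, was at 24.5, 22.1 and 20.8 TPM in stress mice and 15.4, 18.8 and 17.8 TPM in ethanol + stress mice and fell by 0.37 (SE 0.11). The difference was -0.22 in read pairs (not called), and the Dnmt3a call ended without stress replicate 1 (-0.30), stress replicate 2 (-0.38), ethanol + stress replicate 1 (-0.29) or ethanol + stress replicate 3 (-0.39) and with the length trend removed (-0.30). Among the other 13 tested writers, readers and erasers of DNA methylation none was called, with Dnmt1, the maintenance enzyme, at -0.26 and Tet1, which oxidises methylcytosine, at 0.09. None of 8 tested histone deacetylases was called either, although Hdac4, at 24.6, 30.6 and 23.6 TPM against 30.8, 31.3 and 34.0 TPM, did not overlap between groups (0.29, not called). Hdac4 gave 0.33 with the length trend removed (called) and 0.09 in read pairs (not called), and 1 deacetylase was called without stress replicate 2. Zfp707, a zinc finger protein, was at 10.3, 12.1 and 11.7 TPM against 9.12, 6.09 and 6.11 TPM and fell by 0.67 (SE 0.15), by 0.46 in read pairs (called), and stayed called without each library in turn, at -0.85 to -0.57.

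Polr2a, the largest subunit of RNA polymerase II, was singled out after its values were seen because of its main transcript. That transcript, of 29 exons, held 90.2% of the gene's TPM over the 12 libraries and stood at 12.3, 13.4 and 11.3 TPM in stress mice and at 5.96, 5.45 and 4.25 TPM in ethanol + stress mice. It fell by 1.17 (SE 0.14, adjusted p = 0.0714 in limma over 59066 transcripts), with control mice and ethanol mice near the stress mice, at 12.3 to 14.2 and 12.6 to 12.7 TPM. The whole gene fell less, from 12.3, 13.7 and 11.3 TPM to 10.5, 8.27 and 9.94 TPM (-0.36, SE 0.11), and its read pairs, 724, 663 and 691 against 574, 433 and 457, fell by 0.51. At gene level the call ended without stress replicate 1 (-0.37) or 2 (-0.29) and without ethanol + stress replicate 2 (-0.27) or 3 (-0.39), and with the length trend removed (-0.27). Of all 59066 transcripts tested, 684 (1.16%) were called.

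The genes Nos1 and Lrrk2 were called in TPM alone. Nos1, the neuronal nitric oxide synthase, was at 18.9, 28.0 and 27.0 TPM in stress mice and 18.6, 14.0 and 17.2 TPM in ethanol + stress mice and fell by 0.55 (SE 0.15), with -0.37 in read pairs (not called). The highest ethanol + stress mouse almost met the lowest stress mouse, and the Nos1 call ended without stress replicate 2 (-0.45), stress replicate 3 (-0.47) or ethanol + stress replicate 2 (-0.43). Lrrk2, a kinase mutated in familial Parkinson disease, was at 24.0, 20.5 and 15 TPM against 13.2, 11.3 and 11.1 TPM and fell by 0.70 (SE 0.18), with -0.33 in read pairs (not called). Most of the Lrrk2 change lay in a processed transcript of 4 exons, at 12.6, 6.82 and 3.52 TPM in stress mice and 0.826, 2.29 and 2.05 TPM in ethanol + stress mice (-1.78, SE 0.48), while the full transcript of 51 exons overlapped between groups (-0.33, not called). Its gene-level call ended without stress replicate 1 (-0.55) or 2 (-0.66) or ethanol + stress replicate 2 (-0.66) or 3 (-0.65).

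**Figure D3:**
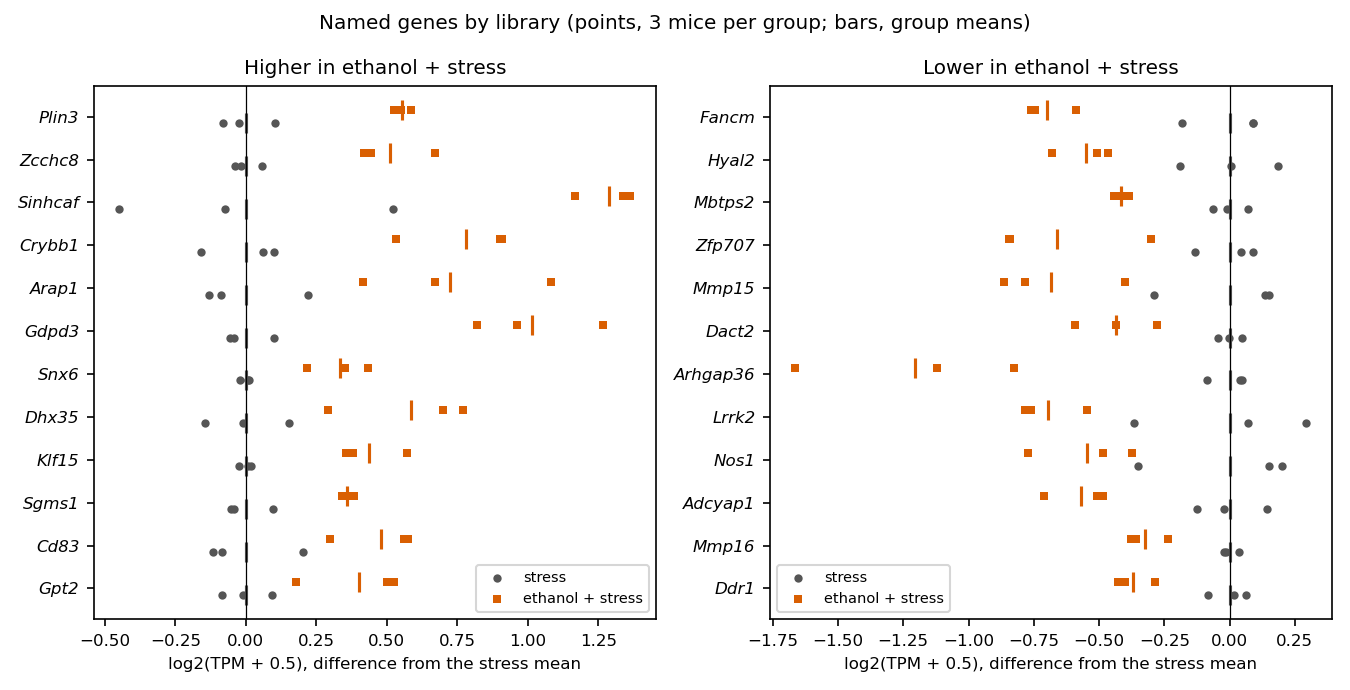
Values of log2(TPM + 0.5) relative to the stress mean (horizontal axes) for the 12 named genes that rose (left) and the 12 that fell (right) with the smallest p, with a point for each mouse and a bar for each group mean. The rule for these genes asks for groups that do not overlap, so that the gap is a condition of the choice, and the spread within a group is widest for Sinhcaf and Arhgap36.

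How much of a change was shared by the read pairs divided the called genes. Of the 73 named genes, 72 kept their direction in read pairs, 43 had a p under 0.05 there and 26 a p under 0.01. In 21 of them the change in read pairs was under 0.5 times that in TPM. Sinhcaf, a subunit of a Sin3 histone deacetylase complex, showed the largest gap. It was at 3.97, 8.25 and 5.30 TPM in stress mice and 15.2, 13.2 and 14.9 TPM in ethanol + stress mice and rose by 1.29 (SE 0.29), but its read pairs were 58, 47 and 61 against 79, 60 and 53, a difference of 0.19 (not called). A processed transcript of 2 exons, which held 61.5% of the Sinhcaf TPM over the 12 libraries, was at 0, 4.35 and 2.11 TPM in stress mice and 9.91, 10.2 and 12.2 TPM in ethanol + stress mice.

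Smaller gaps between TPM and read pairs were seen in Zcchc8, Snx6, Arap1 and Dhx35. Zcchc8, a scaffold of nuclear RNA decay, was at 19.6, 19.3 and 20.7 TPM against 26.7, 31.9 and 27.2 TPM and rose by 0.51 (SE 0.10) in TPM, with 0.09 in read pairs (not called). A transcript marked for nonsense-mediated decay held 52.4% of its TPM over the 12 libraries. Snx6, a retromer sorting nexin, was at 57.3, 57.2 and 56.1 TPM against 66.1, 72.7 and 77.0 TPM and rose by 0.33 (SE 0.08), with 0.23 in read pairs (not called). A Snx6 transcript with a retained intron stood at 13.4, 13.3 and 14.3 TPM in stress mice and 24.9, 22.9 and 23.9 TPM in ethanol + stress mice (0.78, SE 0.11, adjusted p = 0.113 in limma), whereas the main coding transcript differed by 0.16 (not called). Arap1, a GTPase-activating protein, rose by 0.72 in TPM, from 6.47, 8.13 and 6.27 to 9.39, 11.3 and 15.2, with 0.11 in read pairs (not called). Dhx35, a putative RNA helicase, rose by 0.59, from 8.53, 9.40 and 10.6 TPM to 11.7, 16.5 and 15.7 TPM, with 0.23 in read pairs (not called). The Snx6 call ended without ethanol + stress replicate 3 (0.28), and that of Dhx35 without stress replicate 1 (0.51) or ethanol + stress replicate 2 (0.50) or 3 (0.53).

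Among genes that fell, Fancm, Hyal2, Mbtps2, Dact2 and Arhgap36 were called in TPM and not in read pairs. Fancm, a DNA translocase of interstrand crosslink repair, was at 9.52, 11.6 and 11.6 TPM in stress mice and 7.05, 6.20 and 6.27 TPM in ethanol + stress mice and fell by 0.70 (SE 0.15), with -0.18 in read pairs (not called). Hyal2, a hyaluronidase, was at 14.7, 12.9 and 11.2 TPM against 8.89, 7.83 and 9.18 TPM and fell by 0.55 (SE 0.12), with -0.10 (not called). Its main coding transcript was nearly level between groups (-0.10, not called). Mbtps2, the site 2 protease that activates sterol and stress transcription factors in the Golgi, was at 13.4, 12.9 and 14.2 TPM against 10.2, 10.0 and 9.79 TPM and fell by 0.41 (SE 0.09), with -0.22 (not called). Dact2, a regulator of Wnt and TGF-beta signalling, fell by 0.43, from 25.4, 24.7 and 26.3 TPM to 18.7, 16.7 and 20.9 TPM, with -0.27 (not called). Arhgap36, an inhibitor of protein kinase A, fell by 1.20 on 8 to 28 read pairs per library, from 2.27, 2.29 and 2.04 TPM to 1.02, 0.352 and 0.742 TPM, with -0.32 (not called), and lost its call without ethanol + stress replicate 2 (-0.98). The first 4 of these kept their call in TPM without each library in turn.

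**Figure D4:**
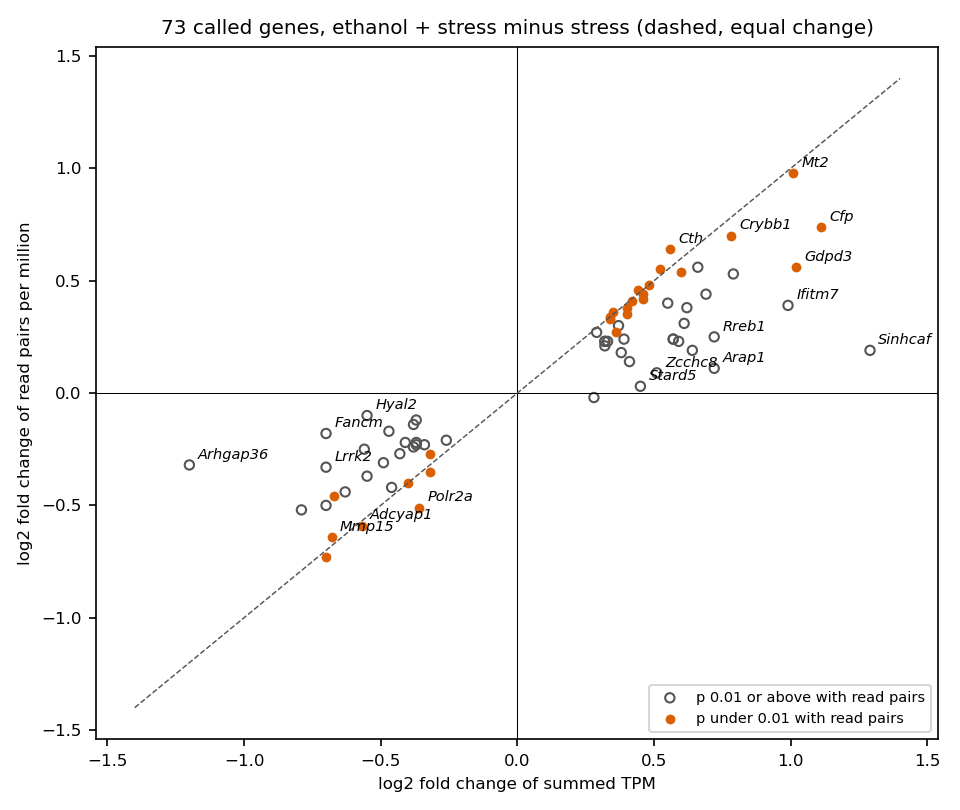
Log2 change of summed TPM (horizontal axis) and of recovered read pairs relative to the library total (vertical axis) between ethanol + stress and stress mice for the 73 called named genes, filled where p was under 0.01 with read pairs. Mt2, Cth, Crybb1, Mmp15 and Adcyap1 lie near the dashed line of equal change, while Sinhcaf (1.29 and 0.19), Arap1 (0.72 and 0.11) and Arhgap36 (-1.20 and -0.32) lie far from it.

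Bag3, a cochaperone of HSP70, was at 1.82, 2.23 and 2.36 TPM in stress mice and 3.09, 3.64 and 3.13 TPM in ethanol + stress mice and rose by 0.52 (SE 0.16), with 0.55 in read pairs (called). It lost its call in 5 of the 6 fits without a library, with 0.44 without stress replicate 1 at the lowest and 0.59 without stress replicate 3, the one that kept it. Of the other 16 tested heat shock proteins and chaperones none was called, and inducible Hspa1a was at 6.96, 10.7 and 7.54 TPM against 10.9, 10.3 and 5.15 TPM (0.02, not called). Id1, an inhibitor of basic helix-loop-helix factors singled out after its values were seen, rose by 0.46 (SE 0.13), from 19.2, 20.4 and 18.1 TPM to 23.5, 28.9 and 27.7 TPM, and lost its call without stress replicate 1 (0.46) or 3 (0.42) or ethanol + stress replicate 2 (0.40) or 3 (0.43), and with the length trend removed (0.34). Of the 73 named genes, 12 stayed called without each of the 6 libraries in turn, and 53 were called in 3 or fewer of these fits. When only the 6 libraries compared entered the fit, 29 of the 73 stayed called, and those lost included Gpt2, Cth, Snx6, Cfp, Cd86, Cd38, Bag3, Nos1, Mmp16, Mmp2, Dnmt3a, Polr2a and Rnf123.

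Across 42 lists of genes for stress, synaptic, epigenetic and cell type functions, 358 of 379 genes were tested and 5 were called, Mt2, Bag3, Tmem119, Adcyap1 and Dnmt3a. That is 1.4% of the list genes, beside 0.63% of all genes. In 37 lists no member was called. The medians of the lists lay above 0 in 20 and below 0 in 21.

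Genes of neuronal excitability had medians below 0 and no called member. The 8 voltage-gated sodium channel genes all had a difference below 0, with a median of -0.26. Scn2a, the main channel of excitatory axons, was at 113, 147 and 137 TPM in stress mice and 136, 72.3 and 103 TPM in ethanol + stress mice, and Scn8a at 52.7, 74.4 and 58.9 TPM against 64.8, 37.8 and 45.9 TPM. For both genes ethanol + stress replicate 1 lay within the stress range and replicates 2 and 3 below it. The NMDA receptor subunits had a median of -0.17. Grin2b, the subunit that prevails in development, was at 69.3, 96.0 and 84.4 TPM against 73, 37.8 and 52.6 TPM (-0.64, SE 0.24, not called). The 5 CA1 markers had a median of -0.24 and the 5 CA3 markers one of 0.00. Without ethanol + stress replicate 1 the medians were -0.49 for sodium channels, -0.35 for NMDA receptors and -0.45 for CA1 markers, with 1 gene called in each of the last 2 lists, and without replicate 2 they were -0.13, -0.04 and -0.07. With the length trend removed from each library they were -0.20, -0.09 and -0.18, with 1 NMDA receptor gene called.

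The 13 respiratory genes of the mitochondrial genome all had a difference above 0, with a median of 0.39 and none called. The gene mt-Co1, a catalytic subunit of cytochrome oxidase, was at 16900, 16700 and 20300 TPM in stress mice and 17300, 24200 and 27300 TPM in ethanol + stress mice, and mt-Atp6, a subunit of ATP synthase, at 3770, 4900 and 5950 TPM against 5240, 7930 and 8550 TPM. Again ethanol + stress replicate 1 lay within the stress range and replicates 2 and 3 above it. The mitochondrial median was 0.59, with 1 gene called, without that replicate, 0.24 without replicate 3, 0.28 with the length trend removed and 0.28 after that rescaling. Immediate early genes, markers of recent activity, had a median of -0.02 with 10 of 20 above 0, and the 17 clock genes one of 0.09 with 13 above 0. Both turned with the libraries used, as the immediate early median was 0.10 without ethanol + stress replicate 3, and the clock median was -0.01 with 8 above 0 without stress replicate 1 and -0.02 with 5 above 0 after rescaling.

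**Figure D5:**
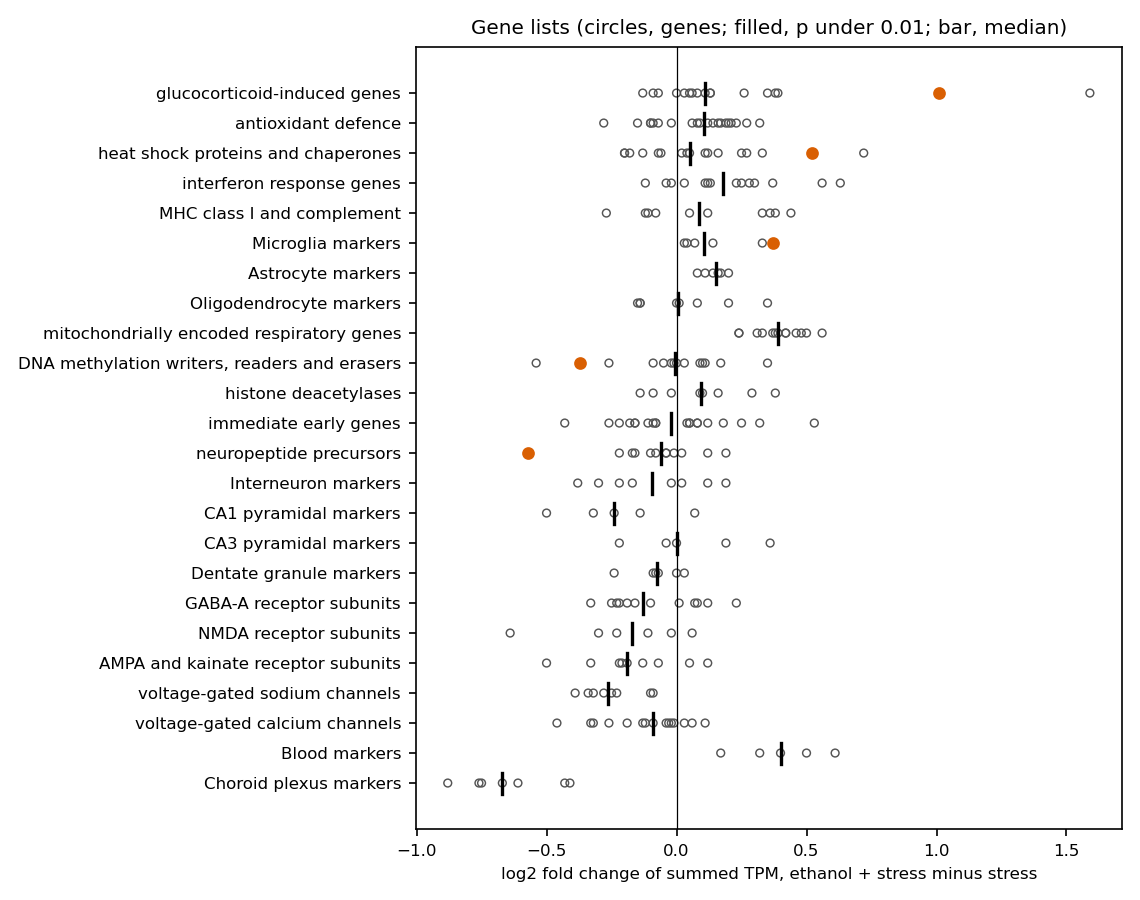
Log2 fold change of summed TPM between ethanol + stress and stress mice (horizontal axis) for the members of 24 gene lists, with a circle for each gene, filled where p was under 0.01, and a bar at the median. Most circles lie within 0.5 of 0, the 5 filled ones are Mt2, Bag3, Tmem119, Adcyap1 and Dnmt3a, and the lists farthest from 0 are those of blood (median 0.40, or 0.08 without ethanol + stress replicate 2), mitochondrial genes (0.39) and choroid plexus (-0.67, but 0.35 without ethanol + stress replicate 3).

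Whether ethanol had the same effect without separation was asked by setting the 2 contrasts, which share no mouse but may share dams and litters, side by side. Ethanol mice against control mice gave 70 called genes (0.484%), 51 higher and 19 lower. In all, 4 genes were called in both contrasts, 4.4% of those called among separated mice and 5.71% of those called among the others. Gm49070, Dhx35 and Cth rose in both, while Mbtps2 fell among separated mice and rose among the others. Gm49070 was tested only through its values in ethanol-exposed mice, so that its rise in both contrasts followed from the filter. Of the 91 genes, 59 (64.8%) had the same sign in both contrasts, beside 65.7% of all genes tested. In 43 genes (0.297%) p was under 0.05 in both contrasts in 1 direction, and in 9 in opposite directions.

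Genes shared by both contrasts are named by the larger of their p values, and Cth, described above, and Dhx35 came first. Dhx35 was at 10.3, 8.86 and 9.62 TPM in control mice and 13.7, 16.8 and 12.7 TPM in ethanol mice (0.55). Mfng, a Notch glycosyltransferase, was at 2.61, 2.92 and 2.68 TPM in control mice and 4.10, 3.87 and 4.35 TPM in ethanol mice (0.51) and at 4.10, 3.10 and 3.21 TPM in stress mice and 4.03, 5.32 and 5.12 TPM in ethanol + stress mice (0.42, not called). Only the first of these Mfng differences was called. Rnf123, a ubiquitin ligase, was called among separated mice, where it fell by 0.47 from 31.1, 32.0 and 22.5 TPM to 19.3, 22.2 and 19.2 TPM, and differed by -0.41 without separation, which was not called. Acrbp, an acrosin-binding protein, differed by 0.65 with and 0.62 without separation, neither of them called. Ddr1 fell with separation and differed by -0.30 (not called) without it. In read pairs the separated mice gave 0.77 for Acrbp, which was called there, and 0.17 for Mfng and -0.17 for Rnf123, which were not. The Rnf123 call ended without stress replicate 1 (-0.40) or 2 (-0.38) or ethanol + stress replicate 1 (-0.44) or 3 (-0.44), and without a library Acrbp became called in 2 fits (stress replicate 3, 0.83, and ethanol + stress replicate 3, 0.77), as did Mfng (stress replicate 1, 0.53, and ethanol + stress replicate 1, 0.54).

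The test of the difference between the 2 ethanol effects called 45 genes (0.311%), none with an adjusted p under 0.05 in limma and 274 with an unadjusted p under 0.05. Of the 91 genes called among separated mice, 17 were also called for this interaction. The interaction contains the difference among separated mice, so that this overlap is partly built in. Mbtps2 had the smallest p of the genes named here, with control mice at 9.19, 9.48 and 9.95 TPM, ethanol mice at 11.2, 12.3 and 11.7 TPM, stress mice at 13.4, 12.9 and 14.2 TPM and ethanol + stress mice at 10.2, 10.0 and 9.79 TPM. Ethanol-exposed mice were thus higher without and lower with separation, and the effects differed by -0.70 (SE 0.13). Plin3 in control mice was at 18.7, 16.2 and 16.2 TPM, and in ethanol mice at 15.9, 17.4 and 14.8 TPM, and its effects differed by 0.64 (SE 0.14). In read pairs these interactions were -0.22 for Mbtps2 and 0.26 for Plin3, and neither was called.

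For Fancm the stress mice, rather than the ethanol + stress mice, stood apart from the unseparated groups. Fancm was at 8.14, 7.01 and 6.96 TPM in control mice and 8.69, 7.56 and 5.83 TPM in ethanol mice, so that its ethanol + stress values of 6.20 to 7.05 TPM lay in or near the range of both, and its stress values of 9.52 to 11.6 TPM above it. Hyal2 was at 10.8, 10.1 and 10.8 TPM in control mice and 11.9, 12.4 and 10.5 TPM in ethanol mice, so that the stress mice lay above the control mice but overlapped the ethanol mice, and the ethanol + stress mice lay below both. Lrrk2 was at 13.0, 13.2 and 18.0 TPM in control mice and 17.1, 13.8 and 18.7 TPM in ethanol mice, and its stress mice overlapped both. For Klf15, Plin3 and Tmem119 it was the ethanol + stress mice that lay above all other groups.

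Ifitm7 and Tmem253 had larger interactions at low levels. Ifitm7, of the interferon-induced transmembrane family, was at 1.16, 1.08 and 1.08 TPM in stress mice, 2.62, 3.07 and 2.39 TPM in ethanol + stress mice, 3.14, 1.64 and 3.76 TPM in control mice and 2.13, 1.17 and 0.812 TPM in ethanol mice. It rose by 0.99 (SE 0.29) among separated mice, on 4 to 10 read pairs per library, and lost that call without any one of the 6 libraries (0.90 to 1.06), with the length trend removed (0.84) and in read pairs (0.39). Related Ifitm genes can share its reads. Tmem253, a transmembrane protein, was at 0.233, 0.419 and 0.741 TPM in control mice and 4.29, 3.48 and 4.78 TPM in ethanol mice, and at 4.43, 1.63 and 1.79 TPM in stress mice and 3.97, 3.12 and 3.46 TPM in ethanol + stress mice. It rose by 2.30 (SE 0.31, adjusted p = 0.0617 in limma) in ethanol mice, while its difference among separated mice was 0.47 (not called), with overlapping groups, or 0.86 and called without stress replicate 1. The interactions were 1.83 for Ifitm7 and -1.83 for Tmem253 in TPM, and 0.75 and -0.78 in read pairs, where neither was called.

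Across all 14455 genes the 2 ethanol effects had a Pearson r of 0.209 and a Spearman rho of 0.363, given as a description because genes are not independent and the length trend enters both. With the length trend removed r was 0.177 and rho 0.296. Without ethanol replicate 2 they were 0.0539 and -0.0311.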

How the data were processed

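RNA-Seq values of 12 hippocampal libraries, each of 1 mouse, were analysed by the groups of their labels. The deposited values are a signal: per the labels the authors used CASAVA, kallisto and sleuth on mm10 (versions not given in the sources used here), which yields TPM per transcript, and the values had been scaled between libraries before deposit, since their sums differ. They are not counts, and a pair fitting several transcripts was divided by estimate. Of 115270 transcripts, 113580 were matched to GENCODE vM21, and unmatched ones held 0.518% to 0.58% of a library. Values were summed per gene, genes with a mean of 1 TPM or more were kept, and log2(TPM + 0.5) was fitted with limma 3.58.1 in R 4.3.3 (lmFit, contrasts.fit, eBayes with trend) over all 12 libraries with 4 group means and no replicate block. Tests were two-sided, unadjusted p under 0.01 was called as in the study, and p values were adjusted by Benjamini and Hochberg over every feature tested. An exact permutation test of 3 against 3 cannot go below 0.1 and was not used.

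Named genes are protein-coding genes with an established symbol: the 12 with the smallest p that rose and the 12 that fell without overlap, called members of the lists, the 6 clearest changes shared with ethanol against control, and the 5 interactions with the smallest p. Members and lists were chosen with earlier results of these data known. Alternatives were a pseudocount of 0.1 or 1, a mean of 5 TPM or no filter, other scalings, no trend in eBayes, only the groups compared, a replicate block, removal of the length trend and leaving out each library. Read pairs, found from the step between the low values of genes with 1 transcript (80.8% to 83% whole within 0.15 of a pair), and fits without ethanol + stress replicate 1 were added after the data were seen. Replicate numbers were not used to pair samples, since nothing says that they mark litters. Transcripts at 0.1 TPM or more in 6 libraries were tested likewise. Promoter windows are from RefSeq. Python 3.11.15, pandas 2.3.3 and matplotlib 3.10.9 were used. The fit was tested on simulated data. Values of some genes are not reported here.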

Additional observations from a re-analysis of the deposited data

Results flagged for a closer look

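Of the genes named, 12 were called by a test of the difference between the ethanol effects with and without separation, with adjusted p = 1 for each in limma. Over all genes tested the share called was 0.311%. Of the 12, Plin3, Hyal2, Mbtps2, Ifitm7 and Tmem253 met the naming rule for a small p of this test, and their interactions lost the call in read pairs. The others were named from genes called among separated mice, whose change is part of the difference tested. On the log2 scale the differences, separated minus unseparated, were 0.64 for Plin3, 0.53 for Zcchc8, 0.59 for Klf15, 0.46 for Sgms1, 0.54 for Tmem119 and 1.83 for Ifitm7, and -0.68 for Fancm, -0.68 for Hyal2, -0.70 for Mbtps2, -0.86 for Lrrk2, -1.07 for Mmp2 and -1.83 for Tmem253. Dixon's test for an outlying sample was not run in groups of 3.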

How the results depend on the processing

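Of the 73 named genes called, 72 or 73 kept their direction under each alternative that tested all 73, as did all 59 tested at a mean of 5 TPM or more. The number that stayed called was 73 with a pseudocount of 0.1 or 1, 61 with the length trend removed, 46 with a replicate block, 29 when rescaled to the same sum, 29 with only the groups compared, 26 in read pairs, and 20 to 58 without 1 library. The counts of called genes for ethanol + stress against stress, ethanol against control and the interaction were 189, 198 and 131 with no filter, 548, 403 and 274 at p under 0.05, and 0, 1 and 0 at an adjusted p under 0.05. The 1 was Gm49070, which passed the filter of the main fit only through ethanol-exposed mice. Among separated mice 6 genes passed an adjusted p of 0.05 with no filter, 2 with only the groups compared and 0 or 1 elsewhere. Without 1 library the counts of called genes were 61 to 518, 48 to 109 and 35 to 89, and called transcripts 553 to 1134, the highest without ethanol + stress replicate 1. Without ethanol replicate 2 the interaction called 76 genes, without ethanol + stress replicate 1 it called 89, and without ethanol replicate 3 ethanol against control called 109. That rescaling gave 58 genes among separated mice, of which 41.4% were higher against 60.4% in the main fit, and 57.4% against 72.9% were higher for ethanol against control, where removing the length trend gave 62%. Without ethanol + stress replicate 1, 647 genes with the length trend removed and 687 in read pairs were called among separated mice, and 102 for the interaction with the trend removed. The interaction called 26 genes at a mean of 5 TPM and 18 in read pairs. The correlation of the effects was 0.305 at a mean of 5 TPM, 0.356 in read pairs, and 0.0539 to 0.278 without 1 library. The Hyal2 interaction reversed (0.04) in read pairs without ethanol + stress replicate 1. The cause was not tested. Same-numbered stress and ethanol + stress libraries had correlations of their deviations of -0.203, -0.083 and 0.117. These few values, of groups from different dams, cannot show whether a number marks a shared litter. Control was not compared with stress in this way, nor ethanol with ethanol + stress. A replicate block gave 80, 69, 44 and 655 calls for the 3 gene comparisons and transcripts.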

Other observations

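Single transcripts with the smallest p values included minor ones that were listed at 0 in every library of a group. A processed transcript of Atrx, a chromatin remodeller, which held 2.57% of the TPM of its gene, was at 2.21, 4.50 and 2.46 TPM in stress mice and listed at 0 in the 3 ethanol + stress mice (adjusted p = 0.113 in limma), while control mice were at 1.5, 3.12 and 2.28 TPM. A processed transcript of the postsynaptic scaffold Shank2, 0.789% of the TPM of its gene, was listed at 0 in the stress and control mice and stood at 0.513, 0.510 and 0.573 TPM in ethanol + stress mice and at 0.257, 0.297 and 0.243 TPM in ethanol mice (adjusted p = 0.0714 in limma among separated mice). Testing asked for 0.1 TPM or more in 6 libraries, which this transcript met only through the ethanol-exposed mice. Its p value therefore rests on a choice made by the groups where it was high. A 0 can be a division of read pairs among transcripts that gave none to this one. These transcripts were chosen after their values were seen.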
